A study of Mus musculus with 6 samples.

Results

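Abundant long noncoding RNAs (lncRNAs) were described in infarcted mouse cortex at day 3 after photothrombotic stroke. An lncRNA was counted as abundant when the deposited table gave its gene the biotype lncRNA and its mean over 6 libraries was at least 10 CPM, which is the count scaled by the library total to a depth of 1000000. This rule gave 160 genes of 11288 lncRNA genes, or 1.42%, in a table of 56748 genes. The rule used the level over all 6 libraries and not the difference between treatments, so the levels below are a description. A gene near 10 CPM could meet the rule through its level in a single group, so the fold changes of such genes are a description too. The 3 PLEA libraries came from male wild-type C57 mice that had an intravenous injection at 100 mg/kg, of an agent the labels do not name, and a clot induced by laser light in the left hemisphere, and that received 100 µL of PLEA nanoparticles through the tail vein 2 hours later. The 3 Saline libraries came from mice of the same sex, strain and genotype with the same injection, the same stroke and 100 µL of saline at the same time. The labels give neither the age of the mice nor the meaning of PLEA, and nothing says that the replicates were separate mice. No tissue without a stroke was analysed here, so each value compares treatments of injured cortex.

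Long noncoding RNAs are transcripts that are not translated into a known protein. Some stay in the nucleus and help to build nuclear bodies, some are read from imprinted loci where only the maternal or the paternal copy is active, and some are mainly carriers of small RNAs that are cut from their introns or exons. Others act in the cytoplasm by binding proteins or microRNAs (miRNAs). Brain tissue expresses many of them, and several are found chiefly in neurons.

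Library totals ran from 17357781 to 17484650 counts in PLEA and from 16810448 to 17516434 counts in Saline, so that 10 CPM stood for 168.1 counts in the smallest library. The lowest count of any of the 160 lncRNAs in any library was 35. Levels below are CPM after scaling by the library's TMM factor, which ran from 0.968 to 1.033. Markers of excitatory neurons summed to 3299.5 to 4495 CPM in PLEA and 2591 to 4918 CPM in Saline. The 9 listed striatal markers summed to 748 to 1696 CPM in PLEA and to 712, 164 and 1705 CPM in Saline replicates 1 to 3, so Saline replicate 2 stood apart. The 10 microglial and myeloid markers summed to 155 to 449.8 CPM in PLEA and to 903, 282 and 363 CPM in Saline, with Saline replicate 1 highest. The 8 meningeal markers summed to 51.4 to 72.8 CPM in PLEA and 122 to 167 CPM in Saline, and all 8 were lower in PLEA at an unadjusted p under 0.05, with a median log2 fold change of -1.46. Of 9 astrocyte markers all 9 had a log2 fold change below 0 (median -0.51, 4 at an unadjusted p under 0.05). The same held for 8 of 9 oligodendrocyte markers (median -0.21) and 5 of 7 endothelial markers (median -0.23). Mitochondrial genes took 4.39% ± 0.513 of counts in PLEA and 5.76% ± 1.18 in Saline (SD, n = 3 each). The part of these differences in the lncRNA values was not tested. Xist, which only an inactive X chromosome makes in quantity, stayed at or below 0.509 CPM in every library, and the labels give male mice.

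Several of these lncRNAs carry sequence that is known to bind a protein or a miRNA, and these sequences are shown first because the levels below concern their carriers. Norad holds binding sites for the Pumilio proteins, which repress messenger RNAs. The motif TGTANATA, searched on the transcribed strand, occurred 11 times in the 4915 bases of the longest Norad transcript in GENCODE M21 (GRCm38), or 2.24 times per kb. No other lncRNA among 274 with a longest transcript of 4000 to 6000 bases held more than 4, and 35.4% of those 274 held at least 1. Among the 144 abundant lncRNAs with a transcript in that annotation, 33.3% held it and Norad ranked first in density. The 5 sites nearest the 5′ end of Norad, on chromosome 2, are printed with the motif in capitals and 8 bases on each side.
Norad bases 643 to 666: aagtcctgTGTATATAatatgaaa
Norad bases 1139 to 1162: aaacatgcTGTAAATAcctttttg
Norad bases 1328 to 1351: cttttcttTGTACATAgtgtatgt
Norad bases 1515 to 1538: gactgctgTGTATATAgtggacaa
Norad bases 1616 to 1639: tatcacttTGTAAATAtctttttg
The sites at bases 643 and 1515 hold TGTATATA, those at bases 1139 and 1616 hold TGTAAATA, and the site at base 1328 holds TGTACATA.

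Oip5os1, also called Cyrano, carries a site for miR-7 that in mouse brain leads to the destruction of that miRNA. The mature miR-7a-5p sequence from RefSeq (GRCm38.p6) is printed with its seed, bases 2 to 8, in capitals. Below it stand both places in the longest Oip5os1 transcript (8300 bases, chromosome 2) that match the seed, with the match in capitals.
miR-7a-5p: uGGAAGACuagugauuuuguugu
Oip5os1 bases 740 to 769: gacttcaggttttttttttaatGTCTTCCa
Oip5os1 bases 2930 to 2959: taagaacaacaaaatcaccaatGTCTTCCa
Upstream of the seed match, the site at bases 2930 to 2959 held a run of 13 bases complementary to the rest of miR-7. At the other site, the longest upstream run complementary to any part of miR-7, seed included, was 4 bases. Seed matches of miR-7 (GTCTTCC) were also counted in the other lncRNAs. Cdr1os, whose transcript crosses the region from which the circular RNA Cdr1as is made, held 125 of them in 19658 bases. Of the abundant lncRNAs, 25% held at least 1 such match, and 45.8% of the 24 lncRNAs with a longest transcript of 7000 to 10000 bases did.

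Many of the abundant lncRNAs span genes of small RNAs. In GENCODE M21, 22 of the 144 that could be matched span at least 1 miRNA gene on the same strand, 8 span small nucleolar RNA (snoRNA) genes, and 1, Rian, spans both kinds. All 3 miR-9 genes of the mouse lie in these hosts, in Gm3764, C130071C03Rik and Mir9-3hg. The mature miRNAs below, from RefSeq (GRCm38.p6), are those whose hosts are described later, with the seed in capitals.
miR-9-5p (Gm3764, C130071C03Rik and Mir9-3hg): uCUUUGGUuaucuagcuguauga
miR-137-3p (Gm26871): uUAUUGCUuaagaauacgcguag
miR-138-5p (C78859): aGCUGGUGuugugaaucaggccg
miR-29b-3p (A330023F24Rik): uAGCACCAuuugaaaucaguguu
miR-29c-3p (A330023F24Rik): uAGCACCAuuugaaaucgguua
miR-100-5p (Mir100hg): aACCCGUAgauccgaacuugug
miR-125b-5p (Mir100hg): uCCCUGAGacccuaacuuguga
miR-374b-5p (Ftx): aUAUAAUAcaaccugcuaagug
miR-22-3p (Mir22hg): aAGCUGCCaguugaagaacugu
miR-134-5p (Mirg): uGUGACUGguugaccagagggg
The miR-29b-3p and miR-29c-3p sequences share the seed AGCACCA, and the other seeds printed differ from each other. Mir124a-1hg and Mir124-2hg each span a miR-124 gene, the chief neuronal miRNA family. The libraries counted gene transcripts, and mature miRNAs were not measured.

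A few genes made up most of the reads of the abundant lncRNAs. Together the 160 genes took 1.61, 1.84 and 1.97% of counts in the PLEA libraries, against 1.59, 1.76 and 1.47% in the Saline libraries. The mean share was 1.805% ± 0.181 in PLEA and 1.61% ± 0.148 in Saline (SD, n = 3 each), a difference of 0.199 percentage points, and the ranges overlapped. The difference was 0.117 points without PLEA replicate 3 and 0.130 points without Saline replicate 3. Meg3 alone held 36.5 to 42.8% of these reads in PLEA and 34.9 to 41.9% in Saline, and the 10 highest genes held 71.2 to 73.6% in PLEA and 69.1 to 72.9% in Saline. At the other end, 78 of the 160 had a mean of 10 to 20 CPM, 63 had 20 to 100 CPM and 19 had more. Their median annotated length was 5057 bases, against 1045 bases for the other lncRNA genes. The biotype is that of the deposited table, which lists Snhg11, Tug1 and Tunar as protein-coding, so these are not among the 160.

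**Figure D1:**
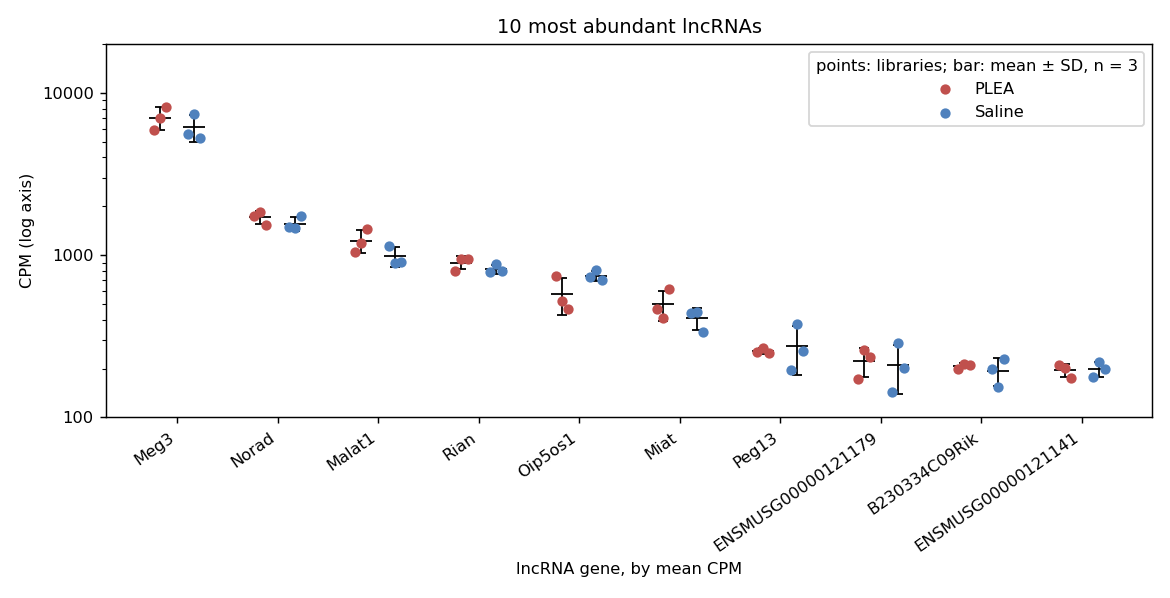
CPM of the 10 lncRNAs with the highest mean level, on a log axis, with 3 points for the PLEA libraries at the left of each pair and 3 for the Saline libraries at the right. Black bars give the mean and SD, and PLEA and Saline points overlap in range for each of the 10 genes.

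Meg3, the maternally expressed lncRNA of the imprinted Dlk1-Dio3 locus, was the most abundant. It had 5937, 7045 and 8155 CPM in PLEA, against 5609, 7449 and 5284 CPM in Saline. Its mean was 7046 ± 1109 CPM in PLEA and 6114 ± 1168 CPM in Saline (SD, n = 3 each), giving a log2 fold change of 0.20 with an SE of 0.21 (adjusted p = 0.875). PLEA replicate 3 and Saline replicate 2 were highest, and the groups overlapped. The log2 fold change was 0.0867 without PLEA replicate 3, 0.37 without Saline replicate 2 and 0.0972 without Saline replicate 3. In the deposited table Meg3 spans bases 109506879 to 109538165 of chromosome 12 on the plus strand. Its promoter is shown because no other abundant lncRNA reached its CPM. The 300 bases are RefSeq's, chr12:109540746-109541045 in GRCm38.p6, plus strand, 250 before and 50 after the start.
Meg3 promoter: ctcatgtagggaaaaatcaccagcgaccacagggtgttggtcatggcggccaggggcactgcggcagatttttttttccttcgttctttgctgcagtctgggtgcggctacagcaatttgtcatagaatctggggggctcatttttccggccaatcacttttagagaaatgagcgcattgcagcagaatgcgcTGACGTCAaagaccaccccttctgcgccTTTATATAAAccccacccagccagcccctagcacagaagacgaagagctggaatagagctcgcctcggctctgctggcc
Capitals mark TGACGTCA, the cyclic AMP response element, whose first base lies at -57 from the start, and the TATA motif TATAAA, found at -25 on the plus strand and overlapping at -29 on the minus strand. On either strand, TGACGTCA occurred in 1.88% of 27025 promoters of the same length and TATAAA in 14.2%. Of the 88 abundant lncRNAs with a promoter in that table, 5 held TGACGTCA and 8 held TATAAA.

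Per kb of the gene length in the deposited table, Norad was close to Meg3. Norad keeps chromosomes stable in dividing human cells by holding Pumilio proteins. It had 1745, 1847 and 1537 CPM in PLEA, against 1486, 1467 and 1740 CPM in Saline, giving a log2 fold change of 0.13 with an SE of 0.15 (adjusted p = 0.888). Its mean level per length was 331 CPM per kb over the 6 libraries, against 345 CPM per kb for Meg3, and their ranges over libraries overlapped. Malat1 followed with 158 CPM per kb and a range that overlapped neither Norad above it nor ENSMUSG00000121141 (109 CPM per kb) below it. From ENSMUSG00000121179 (69.9 CPM per kb) down through Oip5os1 (61.5), ENSMUSG00000120976 (58.3), Peg13 (56.2) and Miat (43.4), each gene's range overlapped that of the next. Rian, ranked 4 by CPM, was ranked 13 per length at 26.9 CPM per kb. The gene length used was 19071 bases for Meg3, 4942 for Norad and 31981 for Rian. Their longest GENCODE M21 transcripts have 14548, 4915 and 8089 bases, so the values per kb and their order depend on the length used. Norad shares 2537 bases at 99.2% identity with the lncRNA gene Gm7292, which had 2.68 to 4.81 CPM in PLEA and 3.16 to 4.36 CPM in Saline.

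No abundant lncRNA passed the test between PLEA and Saline. With edgeR's quasi-likelihood test and Benjamini-Hochberg adjustment over 17584 genes, 0 of 160 were called higher and 0 lower in PLEA, and 0 of all tested genes were called, a background of 0% in each direction. The smallest adjusted p among the 160 was 0.818. DESeq2 called 0 higher and 1 lower (Gm10076), beside a background of 0.00585% higher and 0.108% lower, and limma voom called 0 and 0. Without the filter on low counts edgeR called 0 higher and 1 lower (Gm10076), beside backgrounds of 0.0205% and 0.0907%. At an unadjusted p under 0.05, 17 of the 160 (10.6%) were higher and 8 (5%) lower in PLEA, beside backgrounds of 2.28% higher and 3.58% lower. These counts include genes, such as Gm26871 and Gm10076, that met the rule through their level in a single group. Without PLEA replicate 2 the counts were 6 higher and 3 lower, beside 1.3% and 1.89% of all genes in the same fit, and without PLEA replicate 3 they were 4 and 4, beside 0.854% and 1.72%. The count lower was 3 without Saline replicate 1 (3.3% of all genes), 5 without Saline replicate 2 (4.56%) and 13 without Saline replicate 3 (4.93%).

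The 160 log2 fold changes had a median of 0.08 and a middle range of -0.09 to 0.31, where all tested genes had a median of -0.01 and a middle range of -0.18 to 0.15. Without Saline replicate 3 the median of the 160 was 0.019, and without PLEA replicate 2 it was 0.05. Of the 160, 95 were above 0 and 65 below, beside 49% and 51% of all tested genes. The PLEA libraries all lay above the Saline libraries for 21 lncRNAs (13.1%) and all below for 6 (3.75%), beside backgrounds of 5.23% and 5.45%. With CPM on library totals, which leaves out the TMM factor, these counts were 24 and 6, beside backgrounds of 6.99% and 4.13%. Replicates of a group also scattered more for the 160 lncRNAs than for protein-coding genes of at least 10 CPM. The median coefficient of variation was 14.1% in PLEA and 16.4% in Saline for the 160, against 9.93% in PLEA and 12.2% in Saline for the 10109 protein-coding genes. These sets were not matched for level, and 78 of the 160 lay at 10 to 20 CPM. PLEA replicate 2 held the highest value of 46 of the 160, and Saline replicate 2 the highest of 43 and the lowest of 44. Library composition, scatter and level differ between the 160 and all tested genes, and their part in these shares was not tested.

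**Figure D2:**
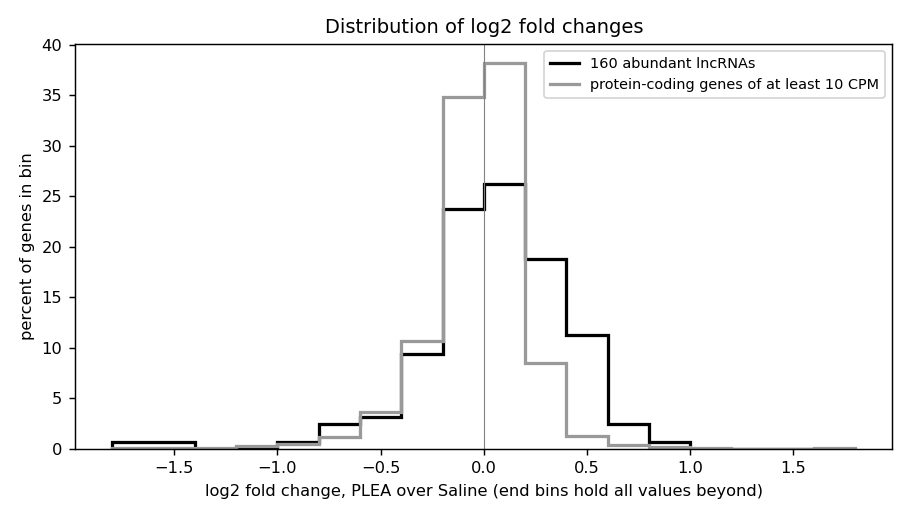
Percent of genes in bins of log2 fold change, PLEA over Saline, for the 160 abundant lncRNAs (black) and for 10109 protein-coding genes of at least 10 CPM (grey), with values beyond the axis in the end bins. The lncRNA curve is wider and lies further right, with a median of 0.08 against -0.00487.

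**Figure D3:**
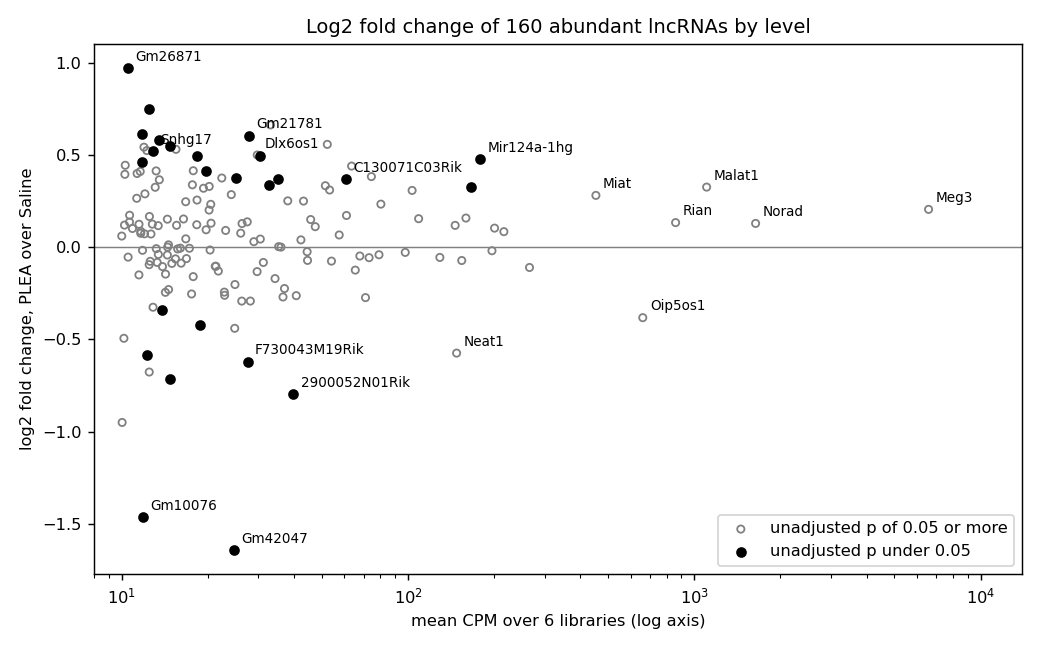
Log2 fold change, PLEA over Saline, against mean CPM over 6 libraries on a log axis, with 1 point for each of the 160 lncRNAs. Filled points have an unadjusted p under 0.05 (17 higher, 8 lower), open points do not, and none passed after adjustment.

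The lncRNAs of nuclear bodies were led by Malat1, which gathers in nuclear speckles beside splicing factors. Malat1 had 1050, 1190 and 1444 CPM in PLEA, against 1141, 888 and 912 CPM in Saline, giving a log2 fold change of 0.33 with an SE of 0.17 (adjusted p = 0.818). Saline replicate 1 lay within the PLEA range, and without PLEA replicate 3 the log2 fold change was 0.19. Malat1 shares 453 bases at 100% identity with the gene Gm37376, and 191 genes share at least 100 bases with it, so its count depends on how shared reads were assigned. Neat1, the scaffold of paraspeckles, lies next to Malat1 on chromosome 19 but had the opposite sign. Neat1 was at 171, 96.4 and 89.4 CPM in PLEA, against 289, 145 and 96.3 CPM in Saline (log2 fold change -0.57, SE 0.40, adjusted p = 0.842). Replicate 1 was highest in each group, and the log2 fold change was -0.01 with Saline replicate 1 left out. It was -0.95 with PLEA replicate 1 left out and -0.88 with Saline replicate 3 left out. The summed markers of microglia and myeloid cells, astrocytes, meninges and excitatory neurons were also highest in replicate 1 of each group, and their part in the Neat1 value was not tested. The 9 genes for paraspeckle proteins had a median of 0.08, with 7 above 0 and none called. The 10 for speckle proteins had a median of 0.01, also with 7 above 0 and none called.

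Miat, or Gomafu, forms its own bodies in the nuclei of neurons. It had 466 (PLEA replicate 1), 410 (PLEA replicate 2) and 615 CPM (PLEA replicate 3), against 442, 448 and 338 CPM in Saline, giving a log2 fold change of 0.28 with an SE of 0.19 (adjusted p = 0.842). Firre, an X-linked lncRNA that helps to organise chromosomes in the nucleus, was at 92.0, 127 and 124 CPM in PLEA, against 97.2, 80.5 and 99.5 CPM in Saline (log2 fold change 0.31, SE 0.16, adjusted p = 0.818). For both genes a PLEA library lay within the Saline range. The log2 fold change of Miat was 0.0993 without PLEA replicate 3 and 0.15 without Saline replicate 3. Over the list of nuclear-retained lncRNAs, 9 of 13 listed genes were abundant, 6 of them with a fold change above 0 and 3 below, with a median of 0.20. None of the 9 had an unadjusted p under 0.05.

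At the imprinted Dlk1-Dio3 locus, Rian and Mirg are read from the maternal chromosome downstream of Meg3. Rian, a host of snoRNAs, was at 804 (PLEA replicate 1), 949 (PLEA replicate 2) and 947 CPM (PLEA replicate 3), against 783, 882 and 796 CPM in Saline (log2 fold change 0.13, SE 0.13, adjusted p = 0.875). Mirg, which spans 14 miRNA genes including miR-134, was at 20.3, 27.1 and 35.1 CPM in PLEA, against 19.3, 36.1 and 20.1 CPM in Saline (log2 fold change 0.13, SE 0.28, adjusted p = 0.949). The groups overlapped for all 3 lncRNAs of the locus. Meg3 and Mirg had their highest PLEA value in replicate 3 and their highest Saline value in replicate 2. The protein-coding Rtl1, expressed from the paternal copy of the locus, was at 10.4, 18.0 and 22.2 CPM in PLEA, against 8.37, 7.44 and 11.4 CPM in Saline (log2 fold change 0.89, SE 0.29, adjusted p = 0.818).

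Outside that locus, 3 more imprinted lncRNAs had groups that overlapped. Peg13, read from the paternal chromosome within Trappc9, was at 251, 268 and 248 CPM in PLEA, against 196, 377 and 255 CPM in Saline (log2 fold change -0.11, SE 0.22, adjusted p = 0.942). Saline replicate 1 lay below and Saline replicate 2 above all 3 PLEA libraries. Snhg14, the paternal transcript that carries 208 snoRNA genes and runs antisense to Ube3a, was at 126, 181 and 143 CPM in PLEA, against 137, 206 and 131 CPM in Saline (log2 fold change -0.07, SE 0.21, adjusted p = 0.965). Kcnq1ot1, which silences neighbouring genes on the paternal chromosome, was at 45.3, 64.9 and 61.9 CPM in PLEA, against 42.5, 51.6 and 42.5 CPM in Saline (log2 fold change 0.33, SE 0.16, adjusted p = 0.818). Only Saline replicate 2 reached into the PLEA range. Another 5 abundant lncRNAs lie within 1 Mb of their next neighbour on chromosome 7, between bases 60662432 and 61632106, on the strand of Snhg14, and their log2 fold changes ran from -0.07 (B230209E15Rik) to 0.11 (A230057D06Rik). The list of imprinted lncRNAs had 6 abundant genes of 9 listed, 4 above 0 and 2 below, with a median of 0.13 and 0 at an unadjusted p under 0.05.

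The hosts of miRNAs included genes with fold changes further from 0. Mir124a-1hg, a host of neuronal miR-124, was at 163, 216 and 246 CPM in PLEA, against 156, 153 and 140 CPM in Saline. Its mean was 208 ± 42.2 CPM in PLEA and 150 ± 8.55 CPM in Saline (SD, n = 3 each), giving a log2 fold change of 0.48 with an SE of 0.16 (adjusted p = 0.818). All 3 PLEA libraries lay above all 3 Saline libraries, PLEA replicate 1 by a narrow margin. The other abundant miR-124 host, Mir124-2hg, was at 61.6, 86.1 and 67.3 CPM in PLEA, against 70.3, 86.9 and 66.5 CPM in Saline (log2 fold change -0.06, SE 0.16, adjusted p = 0.965). The difference between the hosts was not tested. They lie on different chromosomes, 14 and 3.

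Gm26871, a host of miR-137, was the abundant lncRNA with the highest log2 fold change. It was at 9.12, 18.7 and 14.1 CPM in PLEA, against 6.79, 6.17 and 8.42 CPM in Saline, with means of 13.96 ± 4.77 CPM in PLEA and 7.13 ± 1.16 CPM in Saline (SD, n = 3 each). The log2 fold change was 0.97 (SE 0.28, adjusted p = 0.818), and the groups were clear of each other. The Saline mean of Gm26871 lay below 10 CPM, so it met the rule through its PLEA level. The 3 hosts of miR-9, a miRNA of neural progenitors, differed in level. Gm3764 was at 144, 130 and 182 CPM in PLEA, against 145, 154 and 121 CPM in Saline (log2 fold change 0.12, SE 0.16, adjusted p = 0.906). C130071C03Rik was at 62.5, 74.2 and 68.7 CPM in PLEA, against 54.6, 45.9 and 58.4 CPM in Saline (log2 fold change 0.37, SE 0.13, adjusted p = 0.818), and its groups did not overlap. Mir9-3hg was at 35.5, 52.5 and 52.7 CPM in PLEA, against 43.9, 28.5 and 46.0 CPM in Saline (log2 fold change 0.25, SE 0.22, adjusted p = 0.860), with overlap.

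C78859 spans a gene of miR-138, which limits the size of dendritic spines in rat neurons. It was at 46.4, 70.8 and 69.4 CPM in PLEA, against 45.3, 24.4 and 57.2 CPM in Saline (log2 fold change 0.56, SE 0.30, adjusted p = 0.818). A330023F24Rik, the host of miR-29b and miR-29c, was at 59.3, 64.6 and 95.5 CPM in PLEA, against 52.8, 67.5 and 41.5 CPM in Saline (log2 fold change 0.44, SE 0.23, adjusted p = 0.818). In both, 1 Saline library lay above 1 or more PLEA libraries. The log2 fold change of C78859 was 0.28 without Saline replicate 2, and that of A330023F24Rik was 0.20 without PLEA replicate 3 and 0.27 without Saline replicate 3. Mir100hg, host of miR-100, a let-7 and miR-125b, stood at 0.15 in log2 fold change (SE 0.13, adjusted p = 0.860), and Mir22hg at 0.23 (SE 0.26, adjusted p = 0.884). Saline replicate 2 held the lowest value of C78859, Mir9-3hg and Mir22hg, the library in which the striatal and excitatory neuron markers were lowest and the oligodendrocyte markers highest, and the part of tissue make-up in these values was not tested. The list of miRNA hosts leaves out Gm26871, Gm3764, A330023F24Rik and C78859, all above 0 in log2 fold change, and other hosts. Also left out are Gm6145, host of miR-6390, and Sox2ot, host of miR-1897, both at -0.29 in log2 fold change. Of the 17 genes on the list, 8 were abundant, 7 above 0 and 1 below, with a median of 0.24, beside 49% above 0 among all tested genes. The 2 of these with an unadjusted p under 0.05 were Mir124a-1hg and C130071C03Rik, both higher in PLEA, beside 2.28% of all tested genes. Gm26871, which is not on the list, also had an unadjusted p under 0.05.

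**Figure D4:**
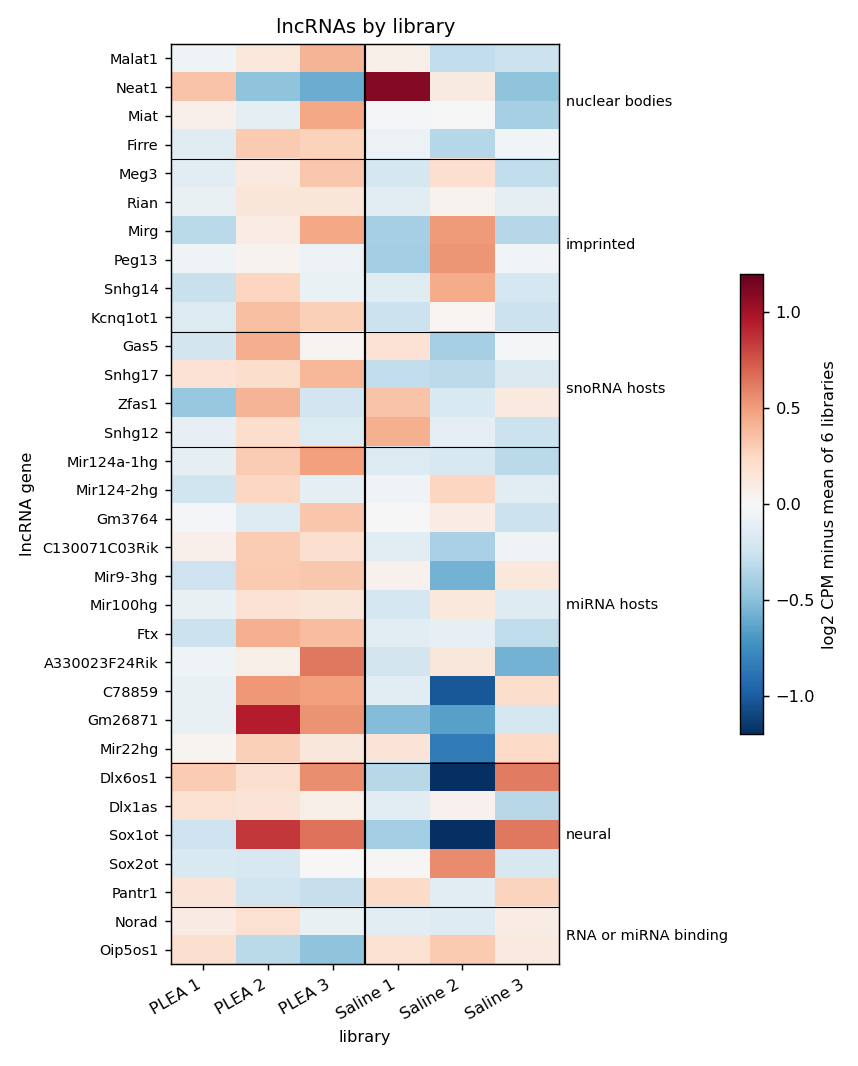
Log2 CPM of named lncRNAs in each library minus the gene's mean over the 6 libraries, with PLEA libraries left of the line and Saline libraries right, genes grouped by role. Gm26871, Mir124a-1hg and Snhg17 are higher in each PLEA library than in each Saline library, while Dlx6os1 and Sox1ot are lowest in Saline replicate 2 and Neat1 is highest in Saline replicate 1.

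The hosts of snoRNAs, whose introns give guide RNAs for ribosomal RNA modification, were mostly of moderate level. Gas5, named for its rise in growth-arrested cells, was at 51.5, 80.8 and 61.5 CPM in PLEA, against 67.5, 45.3 and 59.2 CPM in Saline (log2 fold change 0.17, SE 0.20, adjusted p = 0.890). Snhg17 was at 14.2, 14.6 and 16.6 CPM in PLEA, against 10.3, 10.2 and 11.2 CPM in Saline. Its mean was 15.1 ± 1.30 CPM in PLEA and 10.5 ± 0.557 CPM in Saline (SD, n = 3 each), giving a log2 fold change of 0.52 with an SE of 0.15 (adjusted p = 0.818), with no overlap between the groups. Zfas1 stood at -0.15 in log2 fold change (SE 0.26, adjusted p = 0.929) and Snhg12 at -0.05 (SE 0.23, adjusted p = 0.976), and their libraries overlapped widely. Of 22 listed hosts, 6 were abundant, 3 above 0 and 3 below, with a median of 0.04. Of these, 1 (Snhg17) was higher at an unadjusted p under 0.05, beside 2.28% of all tested genes.

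Oip5os1, the carrier of the miR-7 site printed above, had the lowest log2 fold change of the 10 lncRNAs of highest mean CPM. Peg13 (-0.11) and ENSMUSG00000121141 (-0.02) were the others of the 10 below 0. Oip5os1 was at 738 (PLEA replicate 1), 519 (PLEA replicate 2) and 464 CPM (PLEA replicate 3), against 735, 805 and 703 CPM in Saline. The mean was 574 ± 145 CPM in PLEA and 748 ± 52.0 CPM in Saline (SD, n = 3 each), giving a log2 fold change of -0.38 with an SE of 0.19 (adjusted p = 0.818). PLEA replicates 2 and 3 lay below every Saline library and PLEA replicate 1 within their range. The log2 fold change was -0.62 without PLEA replicate 1 and -0.25 without PLEA replicate 3. Cdr1os was at 152, 189 and 163 CPM in PLEA, against 135, 189 and 128 CPM in Saline (log2 fold change 0.16, SE 0.17, adjusted p = 0.883). The list of stress and growth arrest lncRNAs, which holds Norad, Oip5os1, Neat1 and Gas5, had 6 abundant genes, 3 above 0 and 3 below, with a median of 0.04 and 0 at an unadjusted p under 0.05. None of the 8 listed immune lncRNAs was abundant, and their means stayed below 1.89 CPM.

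Of the lncRNAs of forebrain development, Dlx6os1 and Sox1ot varied widely between the Saline libraries. Dlx6os1, or Evf2, is read beside the Dlx5 and Dlx6 genes of GABAergic neurons. It was at 33.5, 30.9 and 40.05 CPM in PLEA, against 21.6, 10.7 and 41.7 CPM in Saline (log2 fold change 0.50, SE 0.40, adjusted p = 0.855). Sox1ot, which lies beside the neural progenitor gene Sox1, was at 24.3, 52.0 and 45.3 CPM in PLEA, against 21.7, 10.4 and 44.9 CPM in Saline (log2 fold change 0.66, SE 0.48, adjusted p = 0.844). G630016G05Rik starts 1376 bases from Meis2 on the opposite strand and was at 12.3, 17.2 and 17.4 CPM in PLEA, against 9.84, 5.65 and 12.5 CPM in Saline (log2 fold change 0.75, SE 0.29, adjusted p = 0.818). All 3 were lowest in Saline replicate 2. Without that library the log2 fold change was 0.14 for Dlx6os1 and 0.29 for Sox1ot, and without Saline replicate 3, the highest Saline library, it was 1.10 for Dlx6os1 and 1.32 for Sox1ot. The value of G630016G05Rik was 0.48 without Saline replicate 2. Its Saline mean lay below 10 CPM, so it met the rule through its PLEA level.

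The summed striatal markers were also lowest in Saline replicate 2, though in PLEA they were highest in replicate 2, where Dlx6os1 had its lowest PLEA value. The gene for the dopamine-regulated phosphoprotein of striatum, Ppp1r1b, had 201, 532 and 436 CPM in PLEA, against 189, 25.8 and 411 CPM in Saline. All 9 striatal markers were detected and had log2 fold changes above 0, with a median of 0.51 and 0 at an unadjusted p under 0.05. In bulk tissue, fewer cells of a type and less RNA per cell cannot be told apart, and the part of the striatal share in these lncRNAs was not tested. Dlx1as did not follow that order and was at 12.7, 12.5 and 11.8 CPM in PLEA, against 10.2, 11.6 and 8.91 CPM in Saline (log2 fold change 0.26, SE 0.17, adjusted p = 0.840). Sox2ot stood at -0.29 in log2 fold change (SE 0.20, adjusted p = 0.842) and Pantr1, beside Pou3f3, at -0.24 (SE 0.17, adjusted p = 0.844). Over the list of 12, 5 were abundant, 3 above 0 and 2 below, with a median of 0.26 and 0 at an unadjusted p under 0.05.

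**Figure D5:**
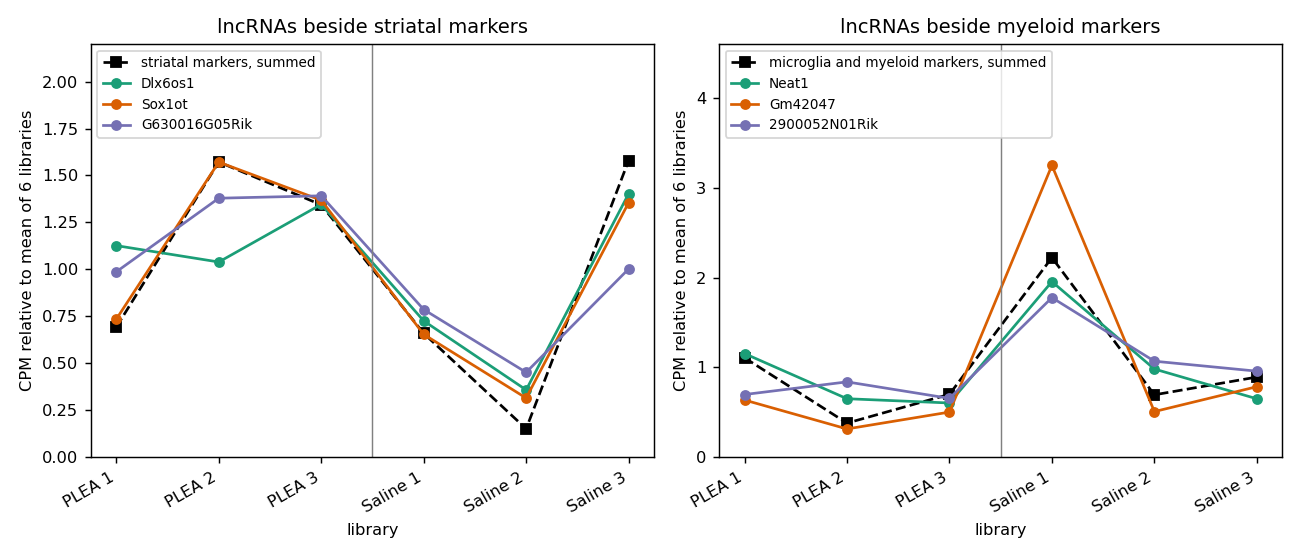
CPM in each library relative to the mean of the 6 libraries, with PLEA libraries left of the line, for 3 lncRNAs beside the summed striatal markers (left) and 3 beside the summed microglial and myeloid markers (right). Saline replicate 2 is lowest for Dlx6os1, Sox1ot, G630016G05Rik and the striatal sum, and Saline replicate 1 is highest for Neat1, Gm42047, 2900052N01Rik and the myeloid sum.

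Ftx and Jpx, neighbours of Xist in the X inactivation centre, were measured in a tissue with almost no Xist. Ftx was at 60.9, 97.7 and 94.3 CPM in PLEA, against 66.7, 68.4 and 58.9 CPM in Saline (log2 fold change 0.38, SE 0.18, adjusted p = 0.818). Jpx was at 10.8, 15.999 and 14.1 CPM in PLEA, against 8.43, 10.8 and 10.4 CPM in Saline (log2 fold change 0.46, SE 0.20, adjusted p = 0.818). PLEA replicate 1 was the lowest PLEA library for both. For Ftx it lay within the Saline range, and for Jpx it equalled the highest Saline library when rounded. The Saline mean of Jpx lay below 10 CPM, so that gene met the rule through its PLEA level. The spans of Ftx and Jpx overlap on opposite strands, from base 102604513 to base 102609302 of chromosome X, and the strand setting of the counting is not given in the sources used here.

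Gm21781 and D030047H15Rik were also among the 5 lncRNAs with the smallest p and a higher level in PLEA. Gm21781, on chromosome 10 near Zbtb2, was at 28.2, 35.1 and 37.3 CPM in PLEA, against 23.9, 17.8 and 24.5 CPM in Saline (log2 fold change 0.60, SE 0.17, adjusted p = 0.818). D030047H15Rik was at 12.2, 13.2 and 17.1 CPM in PLEA, against 9.78, 8.08 and 10.0 CPM in Saline (log2 fold change 0.61, SE 0.19, adjusted p = 0.818). Neither had overlapping groups, but the Saline mean of D030047H15Rik lay below 10 CPM, so it met the rule through its PLEA level. D030047H15Rik overlaps the protein-coding Ttyh1 over 10369 bases on the opposite strand and shares 149 bases of transcript with it, so without strand reads of Ttyh1, at 428 CPM, cannot be told apart from its own. Ttyh1 itself stood at 0.09 in log2 fold change (SE 0.14, adjusted p = 0.918). Leng8, which starts 113 bases from D030047H15Rik on the opposite strand, was at 0.33 (SE 0.17, adjusted p = 0.818). Grin1os, antisense to the NMDA receptor gene Grin1, stood at 0.49 in log2 fold change (SE 0.18, adjusted p = 0.818), while Grin1 was at 0.27 (SE 0.16, adjusted p = 0.825). Cerox1, known in mouse to raise mitochondrial complex I activity, was at 33.7, 41.7 and 43.6 CPM in PLEA, against 27.3, 29.9 and 34.8 CPM in Saline (log2 fold change 0.37, SE 0.15, adjusted p = 0.818), where 1 Saline library lay above 1 PLEA library.

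The lncRNA with the smallest p of all was Gm10076, lower in PLEA. It was at 3.98, 9.78 and 5.24 CPM in PLEA, against 24.6, 15.9 and 11.9 CPM in Saline, with means of 6.33 ± 3.05 CPM in PLEA and 17.5 ± 6.50 CPM in Saline (SD, n = 3 each). The PLEA mean of Gm10076 lay below 10 CPM, so it met the rule through its Saline level. The log2 fold change was -1.46 (SE 0.38), with an adjusted p of 0.818 in edgeR, 0.0257 in DESeq2 and 0.0373 in edgeR without the filter on low counts. The groups did not overlap. Its transcript is nearly a copy of a ribosomal protein messenger: 383 of its 384 bases align to Rpl41 at 99.5% identity. Rpl41 was at 95.8, 72.6 and 96.6 CPM in PLEA, against 97.0, 35.1 and 77.7 CPM in Saline (log2 fold change 0.34, SE 0.32, adjusted p = 0.870). How reads matching both were assigned is not given in the sources used here, so the value of Gm10076 is uncertain.

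The other lncRNAs with the smallest p and a lower level in PLEA were 2900052N01Rik, F730043M19Rik, 1700047M11Rik and Gm42047. 2900052N01Rik was at 27.8, 33.4 and 26.1 CPM in PLEA, against 70.7, 42.6 and 38.2 CPM in Saline (log2 fold change -0.79, SE 0.23, adjusted p = 0.818). F730043M19Rik, which starts 81 bases from Atxn7l1 on the opposite strand, was at 28.0, 15.4 and 21.7 CPM in PLEA, against 36.5, 30.4 and 33.1 CPM in Saline (log2 fold change -0.62, SE 0.21, adjusted p = 0.818). 1700047M11Rik was at 10.6, 8.93 and 9.93 CPM in PLEA, against 15.5, 17.4 and 11.2 CPM in Saline (log2 fold change -0.58, SE 0.20, adjusted p = 0.818). For each of these 3 the groups were clear of each other. The PLEA mean of 1700047M11Rik lay below 10 CPM, so it met the rule through its Saline level. 2900052N01Rik was highest in Saline replicate 1, and its log2 fold change was -0.46 without that library. The markers of microglia and myeloid cells, astrocytes, meninges, endothelium and excitatory neurons and the mitochondrial share were highest there too, and their part in its value was not tested. Atxn7l1 stood at -0.19 in log2 fold change (SE 0.13, adjusted p = 0.842).

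Gm42047 had the lowest log2 fold change of the 160, and 1 library set it. It was at 15.7 (PLEA replicate 1), 7.80 (PLEA replicate 2) and 12.4 CPM (PLEA replicate 3), against 80.3, 12.6 and 19.4 CPM in Saline (log2 fold change -1.64, SE 0.64, adjusted p = 0.818). Saline replicate 2 lay within the PLEA range, and without Saline replicate 1 the log2 fold change was -0.40. ENSMUSG00000120992, at the threshold of 10 CPM, was also highest in Saline replicate 1. It was at 10.7, 4.07 and 5.80 CPM in PLEA, against 29.0, 5.71 and 4.92 CPM in Saline. Its other libraries held 4.07 to 10.7 CPM, so it met the rule through Saline replicate 1 and is no separate example of a high value there. Its log2 fold change was -0.95 (SE 0.68, adjusted p = 0.844), and 0.37 without Saline replicate 1. Summed markers of microglia and myeloid cells, astrocytes, meninges, endothelium and excitatory neurons and the mitochondrial share were all highest in Saline replicate 1. All 10 microglial and myeloid markers were detected and had log2 fold changes below 0, with a median of -0.74 and 3 at an unadjusted p under 0.05, and the part of any of these measures in the 2 lncRNAs was not tested. Gm42047 shares 3209 bases at 98.4% identity with Gm48362, which had 0 counts in every library.

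Abundant lncRNAs lay over or beside protein-coding genes less often than rarer ones by count, a difference that was not tested. Of the 160, 60 (37.5%) overlapped the span of a protein-coding gene, 47 of them one on the opposite strand and 15 one on the same strand, with 2 in both counts. Of 1129 lncRNAs of 1 to 10 CPM, 58.1% overlapped one. The start of 40 of the 160 (25%) lay within 1000 bases of a protein-coding start on the opposite strand, against 34.0% of the rarer set. In 20 of these 40 pairs the lncRNA and its partner had log2 fold changes of the same sign, 13 with both above 0 and 7 with both below. An example with the same sign was F730043M19Rik and Atxn7l1, described above. A830082K12Rik and Nr2f1 lie outside these 40 pairs, since their starts are 1740 bases apart, but overlap over 1741 bases on opposite strands. Their log2 fold changes were -0.42 (SE 0.17, adjusted p = 0.818) and -0.61 (SE 0.26, adjusted p = 0.818). Among the 40, B230208B08Rik and Ptprd, whose starts lie 6 bases apart, had log2 fold changes of 0.41 and -0.27.

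The threshold itself fell in a continuous range of levels. Just inside it, on library totals, lay 6530402F18Rik at 10.1 CPM, ENSMUSG00000120992 at 10.1 CPM and Gm19500 at 10.0 CPM. Just outside it lay ENSMUSG00000121134 at 9.97 CPM, Gm49797 at 9.82 CPM and ENSMUSG00000120104 at 9.81 CPM. Their log2 fold changes ran from -0.95 to 0.06 inside and from -0.56 to 0.79 outside, with none called.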

How the data were processed

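The deposited table holds whole-number counts for each gene in 6 RNA-seq libraries (3 PLEA and 3 Saline, by title), together with gene length, biotype and coordinates. Libraries were made with a SMARTer mRNA kit, per the labels' protocols. Builds named in the submitters' processing notes are GRCm38 and mm10, but of 144 abundant lncRNAs shared with GENCODE M21 (GRCm38) only 1 had the same start and end, so coordinates of the deposited table are printed with no build. The sources used here name no aligner or counter, and no strand setting. Reads of overlapping or near-identical genes may therefore be split.

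Tests covered the whole table and used R 4.3.3 and edgeR 4.0.16 (TMM factors, the filterByExpr filter and a quasi-likelihood test with treatment alone in the model) and adjusted by Benjamini-Hochberg over 17584 genes, at a threshold of 0.05. Each SE was taken from the fold change and its F statistic. Since nothing states that replicates were separate mice, the p-values reflect only library-to-library spread, which may be technical. Alternatives were DESeq2 1.42.0, limma 3.58.1 voom, RLE and upper-quartile factors, other filters, a replicate block, each library left out and other rules for abundance. Leaving out libraries for the summed share was added after seeing the data. Simulated counts with 200 changed genes were used to check the fit. No library pair agreed within sampling noise. Near-identical transcripts were sought in GENCODE M21 with BLASTN 2.17.0 (identity of at least 95% over at least 100 bases). Besides the matches given above, Gm21781 shared such a stretch with 15 other genes, F730043M19Rik with 13 and Snhg17 with 4. At 100% identity, Meg3 shared 805 bases with Gm26906, Miat 656 with Gm26953 and B230334C09Rik 1302 with Lrrc40. Sequence counts used each gene's longest transcript.

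The members and lists were chosen with earlier results of these data known. Named genes are the 10 of highest mean CPM, the 5 of smallest p in each direction, up to 4 per list and 3 on each side of the threshold. A further 20, among them Mirg, Kcnq1ot1, Firre, Jpx, Sox1ot, C78859, Grin1os and Cerox1, were chosen after their values were seen, as were Cdr1os, Gm6145 and lncRNAs named for their position or length.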

Additional observations from a re-analysis of the deposited data

How the results depend on the processing

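In the alternatives run, the counts called at an adjusted p under 0.05 were 0 higher and 0 lower except for 1 lower (Gm10076) with DESeq2 and 1 lower, the same gene, without the filter on low counts. At an unadjusted p under 0.05, 17 of the 160 were higher and 8 lower. With a minimum of 5 CPM the counts were 32 and 13 of 333 lncRNAs, and with a minimum of 20 CPM they were 8 and 3 of 82. For the 100 of the 160 that overlap no protein-coding gene they were 9 and 5. All are from the same fit, in which 2.28% of all genes were higher and 3.58% lower. Leaving out 1 library gave 4 to 25 higher and 3 to 13 lower, beside 0.854 to 4.26% and 1.72 to 4.93% of all genes, a median log2 fold change of 0.0189 to 0.12 and a difference in share of counts of 0.117 to 0.297 percentage points. With the replicate number as a block, 0 were called, and the unadjusted counts were 23 higher and 9 lower, beside 2.7% and 5.07% of all genes. Deviations from the group means correlated at 0.373, 0.173 and -0.0176 between same-numbered libraries, replicates 1 to 3. Between libraries of unlike number the correlations ran from -0.358 to 0.230. Whether same-numbered libraries share more than a number cannot be told from these values. Of 52 named lncRNAs, 38 kept their sign in 13 alternatives. When 1 library was left out, 14 turned sign, over these log2 fold changes: Peg13 -0.30 to 0.18, ENSMUSG00000121179 -0.12 to 0.37, B230334C09Rik -0.0426 to 0.23, ENSMUSG00000121141 -0.0879 to 0.057, Snhg14 -0.23 to 0.16, Gas5 -0.0223 to 0.31, Mir124-2hg -0.21 to 0.0609, ENSMUSG00000120992 -1.45 to 0.37, Gm19500 -0.25 to 0.58, Mirg -0.0863 to 0.48, Gm3764 -0.0316 to 0.22, Mir22hg -0.0419 to 0.40, Zfas1 -0.44 to 0.0047 and Snhg12 -0.20 to 0.19. The cause was not tested.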
